A study of Homo sapiens with 12 samples.

Results

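Antisense RNAs were followed in 786-O cells, a line of clear cell renal cell carcinoma (ccRCC), after transfection with siRNAs. The members were the rows of the read count table whose gene name ends in -AS1, -AS2 or -AS3 and whose counts sum to at least 300 over the 12 libraries. This rule gave 263 members out of 1156 rows with such a name and 60448 rows in all, of which 246 end in -AS1, 13 in -AS2 and 4 in -AS3. Each was set beside its partner, the row named by the part before -AS, which 254 members had. The sum that selected the members ran from 300 to 41316 counts, with a median of 1000. Of the rows not selected, 309 were at 0 in every library and 584 had sums from 1 to 299. CHKB-AS1 (300 counts), PTOV1-AS2 (303) and SEMA6A-AS1 (306) stood just inside the threshold, and LCMT1-AS1 (297), MAMDC2-AS1 (289) and HOXB-AS2 (288) just outside. The sum covers all groups, and 51 members had fewer than 300 counts without the group where their mean level, relative to library size, was highest (31 siGABPA, 9 siGPD1L, 9 siNC and 2 siBRD9), of which 18 also stayed below it when the other 9 libraries were rescaled to 12. Besides these 3 just inside the threshold, the 51 include SMC2-AS1, TTC21B-AS1, C21orf62-AS1, PRKAR2A-AS1, SOX9-AS1 and CYP1B1-AS1 (siGABPA), SLCO4A1-AS1 and NR2F1-AS1 (siGPD1L) and PRR34-AS1 and RALY-AS1 (siNC). Their values in a comparison with that group, and all counts of called members, are a description of these rows.

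The libraries came from 786-O cells under transient siRNA transfection, 3 per group: siNC (the negative control), siGABPA (GABPA siRNA), siGPD1L (GPD1L siRNA) and siBRD9 (BRD9 siRNA). All groups, the control included, are transfected cells of the same line. The totals were 21419987 to 24469305 counts in siNC, 26395629 to 27363062 in siGABPA, 27440715 to 28650340 in siGPD1L and 19499090 to 29999290 in siBRD9. The study describes its RNA-seq of GABPA depletion as independent experiments, while nothing in the sources used here says whether the libraries of siGPD1L or siBRD9 came from separate cultures, so that the spread behind their p-values may be technical. Levels are given in CPM, the usual count of a gene relative to the total of its library, scaled by TMM, and differences as log2 fold changes ± standard error. A gene was called higher or lower at a false discovery rate (FDR) below 0.05 and a fold change above 1.5 in edgeR's quasi-likelihood test, adjusted by Benjamini-Hochberg over all genes tested. All adjusted p-values come from this test on 3 libraries against 3.

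An antisense RNA is transcribed from the strand opposite to its host gene, within it or next to its start. Many such RNAs arise from promoters that fire in both directions, stay in the nucleus at low level and are degraded there by the RNA exosome. Some antisense RNAs are known to silence their host gene or to stabilise its mRNA, while most have no assigned function. GABPA is the DNA-binding ETS subunit of the transcription factor GABP, GPD1L is a relative of glycerol-3-phosphate dehydrogenase, and BRD9 is a bromodomain subunit of a SWI/SNF chromatin remodelling complex.

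The targeted genes were examined first as a check of the labels. GABPA stood at 44.5, 51.2 and 42.9 CPM in siNC and at 16.9, 14.3 and 15.3 CPM in siGABPA, a log2 fold change of -1.57 ± 0.08 (adjusted p = 2.39e-12). It was also lower in siGPD1L (24.99, 26.0 and 25.8 CPM, -0.85 ± 0.06) and in siBRD9 (25.4, 26.1 and 30.5 CPM, -0.75 ± 0.07), both without overlap with siNC. GPD1L was at 19.1, 19.4 and 20.3 CPM in siNC and at 6.53, 5.92 and 7.49 CPM in siGPD1L (-1.56 ± 0.09). BRD9 was at 98.8, 102 and 102 CPM in siNC and at 23.2, 24.9 and 27.8 CPM in siBRD9 (-1.99 ± 0.06). Each targeted gene was lowest in the group that carries its name. The kidney lineage factors PAX8 (226 ± 6.66 CPM, SD, n = 3) and PAX2 (28.9 ± 1.63) and the keratin KRT8 (1035 ± 7.21) were present in siNC. CA9, a hypoxia marker of ccRCC, had 0 counts in siNC and at most 7 in any other group, the leukocyte gene PTPRC had at most 1 count per group, and CD3E and COL3A1 had 0 counts in all libraries. The endothelial gene PECAM1 had 0 counts in siNC, 22 in siGABPA, 18 in siGPD1L and 7 in siBRD9, and the hepatocyte gene ALB had 6, 14, 6 and 6. Their part in the results was not tested.

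On GENCODE 29 (GRCh38), 252 members and their partners both have a position. Of these, 100 overlapped the partner at the starts (head to head) and 49 at the ends, 23 lay inside it, 22 enclosed it, and 58 were divergent and apart. Starts lay within 1000 bases of each other in 118 pairs. The kit in the labels does not mark strand, and the strand setting of the counting is not given in the sources used here, so reads from bases that both genes cover cannot be told apart. In 157 pairs the antisense RNA shares exon bases with an exon of the partner, a median of 9.1% of its exon length, and 95 share none. Exon bases are shared with a gene other than the partner by 99 members, such as THAP9-AS1 with SEC31A and FGD5-AS1 with NR2C2. The members held 0.234% of all counts, and 208 had a lower sum than their partner while 46 had a higher one.

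Per kilobase of exon, the most abundant members over the 12 libraries were LRRC75A-AS1 (37.1 CPM per kb), TGFB2-AS1 (32.9), NCBP2-AS2 (27.2), FGD5-AS1 (23.6), THAP9-AS1 (16.5), ARRDC1-AS1 (15.02), BAIAP2-AS1 (14.8) and ZFPM2-AS1 (13.5). LRRC75A-AS1, which shares exon bases with the small nucleolar RNA genes SNORD49A, SNORD49B and SNORD65, lay far above its partner LRRC75A at 0.341 CPM per kb. FGD5, the partner of FGD5-AS1, had 0 counts in all 12 libraries. TGFB2-AS1 stood close to TGFB2, the gene of a TGFβ ligand, at 29.7 CPM per kb, and NCBP2-AS2 close to NCBP2, a subunit of the nuclear cap-binding complex, at 25.1.

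The abundant members moved in different directions. LRRC75A-AS1 fell from 202, 190.4 and 190.3 CPM in siNC to 112, 113 and 111 CPM in siGABPA (-0.79 ± 0.03, adjusted p = 4.52e-13), and was lower in siGPD1L (-0.63 ± 0.04) and siBRD9 (-0.62 ± 0.04) as well. With total counts only as the scaling, these log2 fold changes were -0.58, -0.46 and -0.49, and without siBRD9 replicate 1 the last was -0.58, none of which is a call. THAP9-AS1 rose from 41.5 to 47.2 CPM in siNC to 77.7 to 78.6 CPM in siGABPA (0.80 ± 0.05), 88.7 to 91.8 CPM in siGPD1L (1.003 ± 0.05) and 75.6 to 80.8 CPM in siBRD9 (0.79 ± 0.05). ZFPM2-AS1 rose by 0.86 ± 0.06, 0.96 ± 0.06 and 1.004 ± 0.06 on the log2 scale in the same order of groups, while its partner ZFPM2, a cofactor of GATA factors, was not called. NCBP2-AS2 rose in siGABPA (0.69 ± 0.07). TGFB2-AS1, FGD5-AS1 and BAIAP2-AS1 were called in no comparison with siNC, with log2 fold changes from -0.42 to 0.28. ARRDC1-AS1 was not called either, with 0.50 ± 0.05 for siGABPA, -0.07 ± 0.06 for siGPD1L and -0.17 ± 0.06 for siBRD9. With total counts only the siGABPA value was 0.72, which is a call.

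Summed over the 263 members, the level was 2099, 2036 and 2084 CPM in siNC and 2595, 2595 and 2554 CPM in siGABPA. It was 2332, 2314 and 2298 CPM in siGPD1L and 2246, 2261 and 2286 CPM in siBRD9. The 4 groups did not overlap, with siGABPA highest, then siGPD1L, siBRD9 and siNC. By group mean, 155 members were highest in siGABPA, 43 in siNC, 38 in siGPD1L and 27 in siBRD9, and 146 were lowest in siNC against 8 in siGABPA. Of all 13908 rows with a sum of at least 300, 24.9% were highest in siGABPA (58.9% of members) and 37.5% lowest in siNC (55.5% of members), and 31 members reached that sum through siGABPA. In bulk RNA, a change in a gene cannot be told apart from a change in the number of cells that express it.

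Other measures differed between the groups as well. Genes with at least 1 count numbered 22986 to 23253 in siNC, 24763 to 25288 in siGABPA, 24658 to 24758 in siGPD1L and 23411 to 24728 in siBRD9. Library size was not adjusted for in these numbers, and the siNC totals lay below those of siGABPA and siGPD1L. Within siBRD9 they ran from 23411 genes at a total of 19499090 counts to 24728 at 29999290. The nuclear RNA NEAT1, the scaffold of paraspeckles, was at 166 ± 10.4 CPM (SD, n = 3) in siNC, 541 ± 69.5 in siGABPA, 224 ± 26.6 in siGPD1L and 185 ± 20.8 in siBRD9. The 139 rows for transcripts inside introns (names with -IT) summed to 34.1 ± 2.27 CPM in siNC, 51.8 ± 3.04 in siGABPA, 48.6 ± 2.06 in siGPD1L and 44.8 ± 0.871 in siBRD9. MALAT1, also a nuclear RNA, was at 216 ± 14.2, 302 ± 38.9, 315 ± 10.2 and 247 ± 22.3 CPM in the same order. It was highest in siGPD1L, unlike NEAT1. By group mean these nuclear and intronic RNAs were thus lowest in siNC, like the summed antisense level. The mitochondrial mRNA MT-ND1 was at 2478 ± 65.0 CPM in siNC and at 1580 ± 148, 1139 ± 41.1 and 1458 ± 116 CPM in siGABPA, siGPD1L and siBRD9. MT-CYB was at 1516 ± 19.1, 1013 ± 60.3, 595 ± 27.7 and 810 ± 69.5 CPM in siNC and these groups. MT-CO1 differed less between siNC and siGABPA, at 14101 ± 265, 12864 ± 616, 9705 ± 624 and 11550 ± 1387 CPM. The part of these differences in the level of antisense RNAs was not tested.

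**Figure D1:**
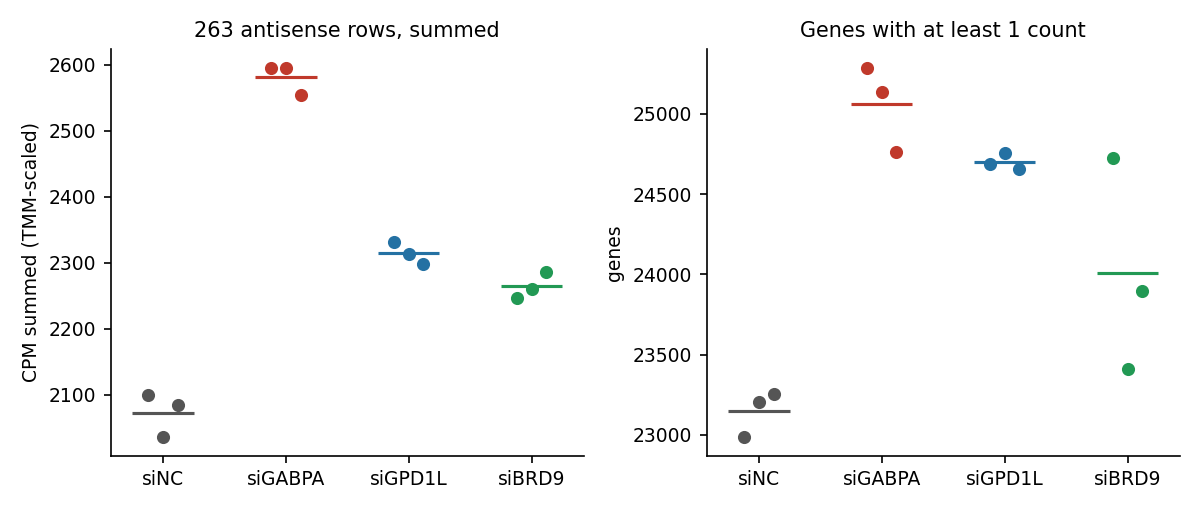
Left, summed CPM of the 263 antisense rows in each of the 12 libraries; right, number of genes with at least 1 count; points are libraries, lines are group means, and neither axis starts at 0. The siGABPA libraries lie at 2554 to 2595 CPM, above all other libraries, and siNC lies lowest at 2036 to 2099 CPM.

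Antisense RNAs were more often higher than lower in siGABPA compared with siNC. Of 262 members tested, 132 (50.4%) were called higher and 8 (3.05%) lower, beside 21.3% higher and 15.2% lower among all 16140 genes tested. The median log2 fold change was 0.59 over the members, 0.03 over their 241 tested partners and 0.02 over all genes. The partners were called higher in 16.6% and lower in 12.4%. With total counts only as the scaling, the median of all genes moved to 0.24 and that of the members to 0.81. Members with a sum of at least 1000 were called higher in 50% of cases, and the 95 with no exon base in a partner exon in 60%.

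Other noncoding types differed in the share called higher. Not all members are of the antisense type in GENCODE. They include 175 antisense, 39 lincRNA, 36 processed transcript and 3 protein-coding genes, so these types share rows with the members. By GENCODE type, all antisense genes were called higher in 39.6% and lower in 6.96% of 934 tested, sense intronic genes in 23.1% and 13.1% of 130, lincRNA genes in 47.1% and 8.6% of 802, processed transcripts in 44.3% and 6.96% of 158, and protein-coding genes in 17.3% and 15.6% of 12659. Processed pseudogenes, copies of spliced mRNAs, went the other way, with 13% higher and 39.5% lower of 560. Shares also differed with abundance. Below a mean of 100 counts per library, 54.1% of 148 members and 37.9% of 4609 other genes were called higher. Between 100 and 1000 counts the shares were 48.1% of 104 members and 19% of 5734 other genes. Over 1000 counts they were 20% of 10 members and 8.51% of 5535 other genes. In each band the share was larger among members, a difference that was not tested. The sets were chosen by unlike rules, since only members had to sum to at least 300 counts. As 31 members reached that sum through siGABPA, the share in the lowest band depends in part on the choice of members.

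**Figure D2:**
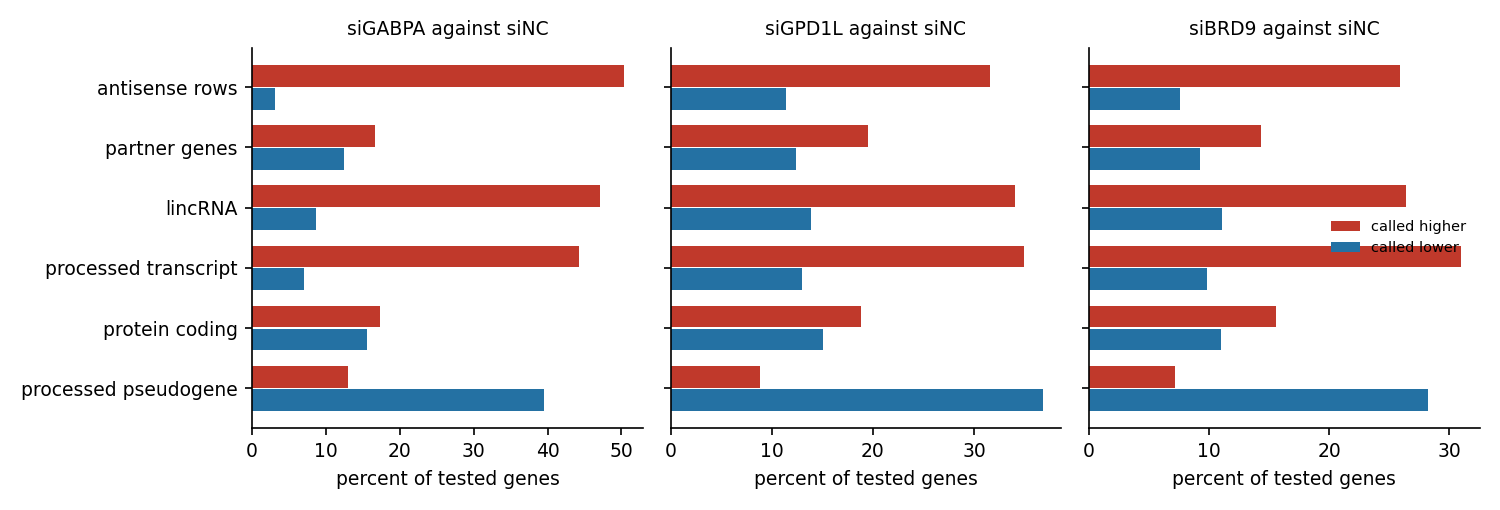
Percent of tested genes called higher (red) or lower (blue) in each targeting group against siNC, for the antisense rows, their partners and 4 GENCODE types; the types include any member of that type. In siGABPA the antisense rows (50.4% higher) stand near lincRNA (47.1%) and above protein-coding genes (17.3%).

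The largest rises in siGABPA were in rare RNAs. LURAP1L-AS1, which overlaps LURAP1L head to head and shares exon bases with the pigment gene TYRP1, had 3, 3 and 4 counts in siNC and 135, 133 and 137 in siGABPA, with a log2 fold change of 4.82 ± 0.26 (adjusted p = 1.21e-11). LURAP1L itself rose by 3.06 ± 0.18 on that scale. AFAP1-AS1, at chr4:7754090-7778928 on the plus strand, overlaps the end of the actin filament-associated protein gene AFAP1. It went from 0.309, 0.201 and 0.404 CPM to 2.88, 3.00 and 2.97 CPM (3.24 ± 0.27), with AFAP1 at 0.44 ± 0.04, below the fold change for a call, and at 0.66, which is a call, with total counts only as the scaling. SOX9-AS1, which encloses SOX9, the gene of a developmental transcription factor, went from 0.360, 0.402 and 0.180 CPM to 1.82, 1.73 and 2.50 CPM (2.68 ± 0.33), with SOX9 at -0.01 ± 0.05. VLDLR-AS1 went from 0.823, 1.11 and 1.35 CPM to 5.52, 6.24 and 6.33 CPM (2.45 ± 0.18), with the lipoprotein receptor gene VLDLR at 0.00 ± 0.04. JHDM1D-AS1, which has no partner row under that name, went from 1.08, 0.753 and 0.764 CPM to 4.42, 5.08 and 5.58 CPM (2.54 ± 0.20). Members named for their largest changes had to show no overlap between the groups, so its absence in these 5 is part of the choice. SOX9-AS1 reached the sum of 300 through siGABPA, with 276 counts in the other groups.

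The 8 members called lower were LRRC75A-AS1, PTPRD-AS1, RALY-AS1, CCDC183-AS1, USP2-AS1, USP46-AS1, ZFHX4-AS1 and ZBTB11-AS1. CCDC183-AS1, which overlaps the end of the coiled-coil protein gene CCDC183 with 26.1% of its exon bases in partner exons, fell from 18.8, 19.7 and 19.6 CPM in siNC to 3.39, 3.03 and 3.58 CPM in siGABPA (-2.54 ± 0.10, adjusted p = 1.02e-13). CCDC183 fell from 11.7, 10.8 and 10.3 CPM to 6.75, 5.75 and 3.90 CPM (-0.998 ± 0.15), so that both genes of the pair were lower. PTPRD-AS1, inside the receptor phosphatase gene PTPRD and sharing no exon base with its exons, fell from 6.07, 5.63 and 5.26 CPM to 1.54, 1.59 and 1.54 CPM (-1.86 ± 0.16), with PTPRD at -0.54 ± 0.04. USP46-AS1, which starts 71 bases from the deubiquitinase gene USP46 and runs the other way, fell from 4.22, 4.22 and 3.32 CPM to 1.92, 1.87 and 1.25 CPM (-1.21 ± 0.20), with USP46 at -0.54 ± 0.05, not called but at -0.59 and called without siNC replicate 3. ZBTB11-AS1 (-0.89 ± 0.23), ZFHX4-AS1 (-0.85 ± 0.18) and RALY-AS1 (-0.73 ± 0.20) fell less, beside partners at 0.20, -0.30 and -0.50 that were not called. RALY-AS1 reached the sum of 300 through siNC, with 281 counts in the other groups. The other targeting groups were compared with the same siNC libraries. In siGPD1L and siBRD9, in that order, ZFHX4-AS1 was called lower at -1.46 ± 0.20 and -1.5998 ± 0.22, RALY-AS1 at -1.22 ± 0.23 and -1.03 ± 0.25, ZBTB11-AS1 at -0.92 ± 0.23 and -0.77 ± 0.23, and USP2-AS1 at -0.77 ± 0.19 and -0.81 ± 0.19.

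In siGPD1L and siBRD9 members were also more often higher than lower compared with siNC. In siGPD1L, 83 of 263 members (31.6%) were called higher and 30 (11.4%) lower, beside 20.4% and 15.5% of all genes, with a median log2 fold change of 0.24. With total counts only as the scaling, 100 were called higher and 16 lower, and the median of all genes moved from 0.01 to 0.18. In siBRD9, 68 of 263 (25.9%) were called higher and 20 (7.6%) lower, beside 16.7% and 11.5% of all genes, with a median of 0.24. Here the median of all genes, 0.01, moved to 0.13 under total-count scaling. Below a mean of 100 counts, the members' share called higher was close to that of other genes, at 29.8% against 32.4% in siGPD1L and 26.2% against 28.5% in siBRD9. Between 100 and 1000 counts it was larger among members, at 35.1% of 94 against 19.7% in siGPD1L and 25.3% of 87 against 15.5% in siBRD9. Over 1000 counts it was 25% of 8 members in both, against 11% and 8.13%. These differences were not tested, and here too only the members had to reach the sum of 300. The 3 comparisons share the siNC libraries.

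**Figure D3:**
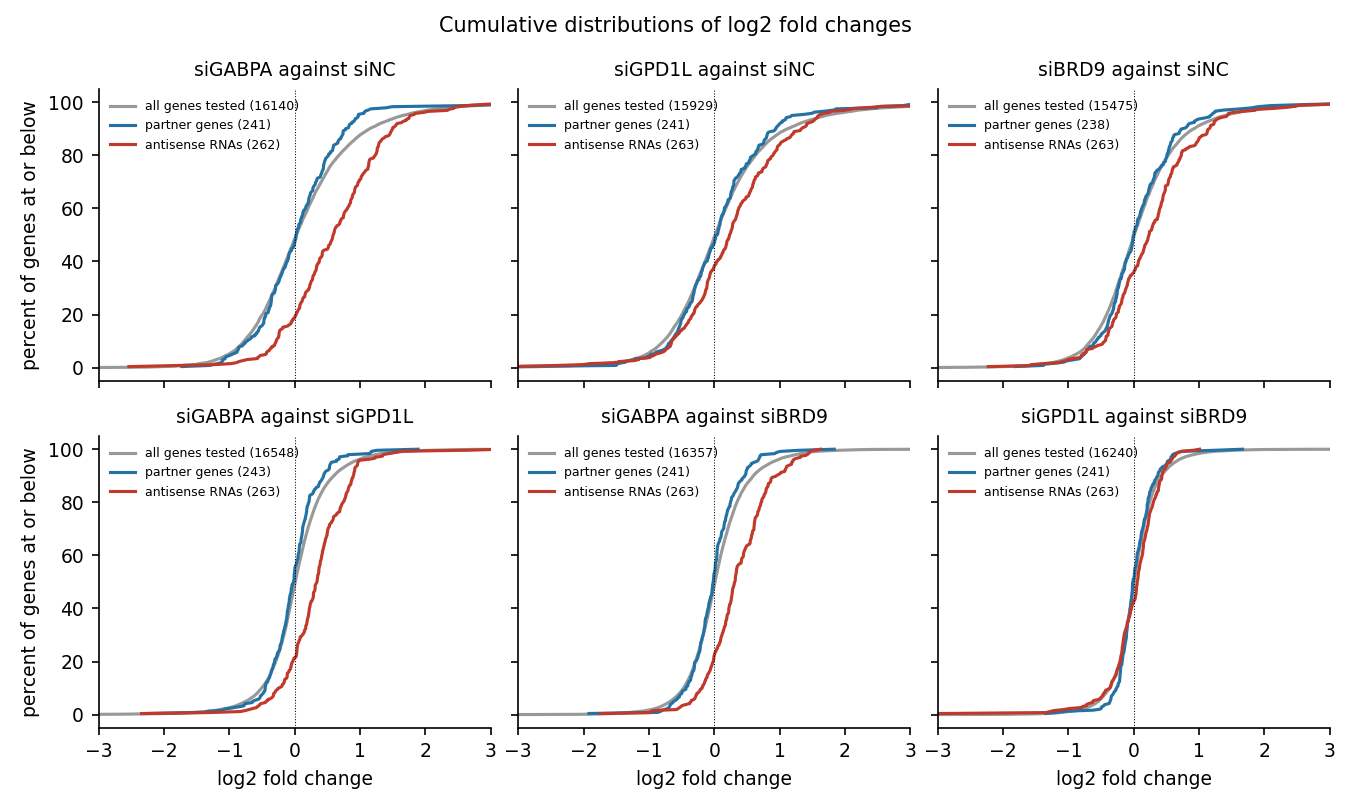
Cumulative percent of genes at or below each log2 fold change, for antisense RNAs (red), partner genes (blue) and all genes tested (grey) in the 6 comparisons; the horizontal axis is cut at -3 and 3. The antisense curve lies to the right in the 3 siGABPA panels, with medians of 0.59, 0.34 and 0.32, while the partner curve stays near 0. It also lies to the right in siGPD1L and siBRD9 against siNC, with a median of 0.24 in each and partner medians of 0.05 and 0.00.

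LURAP1L-AS1 also showed the largest log2 fold change among the named members in siGPD1L (4.64 ± 0.29) and siBRD9 (4.69 ± 0.29). AFAP1-AS1 reached 4.87, 4.43 and 5.10 CPM in siGPD1L (3.94 ± 0.25) and 5.31, 6.55 and 5.65 CPM in siBRD9 (4.22 ± 0.25), above all siGABPA libraries. JHDM1D-AS1 was called higher at 2.56 ± 0.19 in siGPD1L and 2.47 ± 0.20 in siBRD9, SOX9-AS1 at 2.41 ± 0.37 and 2.34 ± 0.34, and VLDLR-AS1 at 2.08 ± 0.20 and 1.89 ± 0.21. SLCO4A1-AS1, inside the organic anion transporter gene SLCO4A1 with 22.6% of its exon bases in partner exons, had 3, 6 and 3 counts in siNC, 63, 79 and 60 in siGPD1L (3.56 ± 0.34) and 55, 31 and 26 in siBRD9 (2.96 ± 0.39). It had 163 counts in all without siGPD1L and 253 without siBRD9, so that it reached the sum of 300 through both groups, and NR2F1-AS1 had 169 without siGPD1L. SLCO4A1 rose from 24.3 to 28.8 CPM in siNC to 200.5 to 209.5 CPM in siGPD1L (2.99 ± 0.05). In siGABPA, SLCO4A1-AS1 had 10, 13 and 16 counts, too few for the test against siNC. NR2F1-AS1 and NR2F1, the gene of an orphan nuclear receptor, had log2 fold changes of 3.52 ± 0.46 and 2.51 ± 0.24 in siGPD1L. SLC2A1-AS1, which starts 127 bases from the glucose transporter gene SLC2A1 (GLUT1), went from 1.59, 1.56 and 1.71 CPM in siNC to 7.70, 7.32 and 6.51 CPM in siBRD9 (2.16 ± 0.16), beside SLC2A1 at 1.80 ± 0.03. These 3 antisense RNAs moved in the same direction as their partner.

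CYP1B1-AS1 fell in siGPD1L from 2.01, 1.66 and 2.83 CPM to 0.282, 0.575 and 0.281 CPM (-2.49 ± 0.33, adjusted p = 6.52e-07) and in siBRD9 to 0.630, 0.870 and 1.49 CPM (-1.15 ± 0.30). In siGABPA it was at 2.30, 2.57 and 2.43 CPM (0.16 ± 0.21). CYP1B1, a cytochrome P450 gene, was called higher in siGABPA (0.97 ± 0.07) and not called in siGPD1L (-0.16 ± 0.09) or siBRD9 (-0.02 ± 0.09). CCDC183-AS1, PTPRD-AS1 and USP46-AS1 were lower in these groups as well, at -3.22 ± 0.13, -2.01 ± 0.19 and -1.48 ± 0.19 in siGPD1L and at -2.23 ± 0.12, -1.57 ± 0.17 and -1.37 ± 0.20 in siBRD9. SP2-AS1, beside the Sp-family factor gene SP2, was lower in siBRD9, where it stood at 0.962, 0.666 and 1.13 CPM against 1.85 to 2.11 CPM in siNC (-1.10 ± 0.25).

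The targeting groups were also compared directly, without siNC. Against siGPD1L, siGABPA had 71 of 263 members called higher (27%) and 6 lower (2.28%), beside 8.54% and 6.9% of all genes, and 11 and 12 of 243 partners. Against siBRD9, 81 of 263 (30.8%) were called higher and 4 (1.52%) lower, beside 8.52% and 5.74% of all genes, and 12 and 12 of 241 partners. The medians over the members were 0.34 and 0.32, and those over the partners -0.02 and -0.01. LincRNA genes were called higher in 25.3% and 28.6%, and protein-coding genes in 5.82% and 5.42%. Both comparisons use the siGABPA libraries. Between siGPD1L and siBRD9, 10 members (3.8%) were called higher and 14 (5.32%) lower, beside 4.01% and 2.91% of all genes, with a median of 0.05.

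TTC21B-AS1, inside the ciliary gene TTC21B, was lowest in siGPD1L, without overlap with any other group. It was at 0.247, 0.271 and 0.211 CPM in siGPD1L, 0.772, 1.26 and 0.764 CPM in siNC, 2.33, 2.61 and 1.75 CPM in siGABPA and 1.86, 2.30 and 1.94 CPM in siBRD9. The log2 fold change of siGABPA against siGPD1L was 3.18 ± 0.30, with TTC21B at 0.12 ± 0.05. TTC21B-AS1 had 222 counts in all without siGABPA and 269 without siBRD9, so that it reached the sum of 300 through both groups. SGMS1-AS1, head to head with the sphingomyelin synthase gene SGMS1, stood at 6.27, 6.70 and 6.69 CPM in siGABPA and 1.55, 2.40 and 2.36 CPM in siGPD1L (1.64 ± 0.15), with SGMS1 at 0.15 ± 0.05. GAS6-AS1, at the end of GAS6, which encodes a ligand of AXL-family kinases, was at 14.7, 13.7 and 11.1 CPM in siGABPA and 4.02, 3.64 and 5.20 CPM in siBRD9 (1.63 ± 0.13), with GAS6 at -0.49 ± 0.08. In these 3 pairs the partner was not called, though GAS6 was at -0.60 and called without siGABPA replicate 1. STXBP5-AS1, beside the syntaxin-binding protein gene STXBP5, was lower in siGABPA (4.04, 3.91 and 4.04 CPM) than in siGPD1L (9.81, 9.37 and 10.7 CPM), at -1.31 ± 0.11. STXBP5 had means of 24.7 CPM in siGABPA and 36.3 CPM in siGPD1L and was not called. Its log2 fold change was -0.599 without siGABPA replicate 3 and -0.621 without siGPD1L replicate 1, both of which are calls. FAM83H-AS1 was highest in siBRD9 at 2.62, 2.61 and 3.44 CPM, with -1.28 ± 0.21 for siGPD1L against siBRD9. C21orf62-AS1 had 0.74 ± 0.29 for siGPD1L against siBRD9, a call that was lost with DESeq2, with limma voom, with no filter beyond 1 count and when any 1 of 5 libraries was left out, and it had 255 counts in all without siGPD1L.

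Antisense RNAs and partners were then compared pair by pair. Of 240 pairs with both genes tested in siGABPA against siNC, 23 were called higher together and 1 lower together. In 85 the antisense RNA was called higher and the partner was not called, in 11 it was called higher with the partner lower, and in 1 it was lower with the partner higher. The antisense RNA had the larger log2 fold change in 184 of the 240. In siGPD1L it was 146 of 241 and in siBRD9 144 of 238. Across pairs, the log2 fold changes of antisense RNA and partner had Pearson's r of 0.26 and Spearman's rho of 0.12 in siGABPA. The siGPD1L comparison gave an r of 0.45 with a rho of 0.32, and the siBRD9 comparison 0.41 with 0.31. Each is a description over pairs that share the same 6 libraries in each comparison. In siGABPA, antisense RNAs with no exon base in the partner's exons were called higher in 60% of 90 pairs, and the others in 43.3% of 150. By arrangement, the share was 65.5% of 58 divergent pairs, 52.6% of 97 overlapping at the starts, 47.4% of 19 inside the partner, 34% of 47 overlapping at the ends and 26.3% of 19 enclosing it. The divergent antisense RNAs had a median log2 fold change of 0.85 and their partners one of 0.04. In siGPD1L and siBRD9 the order was another, with 31% and 24.6% of divergent pairs, 40.2% and 33.3% of those overlapping at the starts and 19.1% and 17% of those overlapping at the ends. With no exon base shared the share was 34.4% in siGPD1L and 26.1% in siBRD9, and otherwise 30.5% and 26%. The differences between arrangements, exon sharing and groups were not tested.

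**Figure D4:**
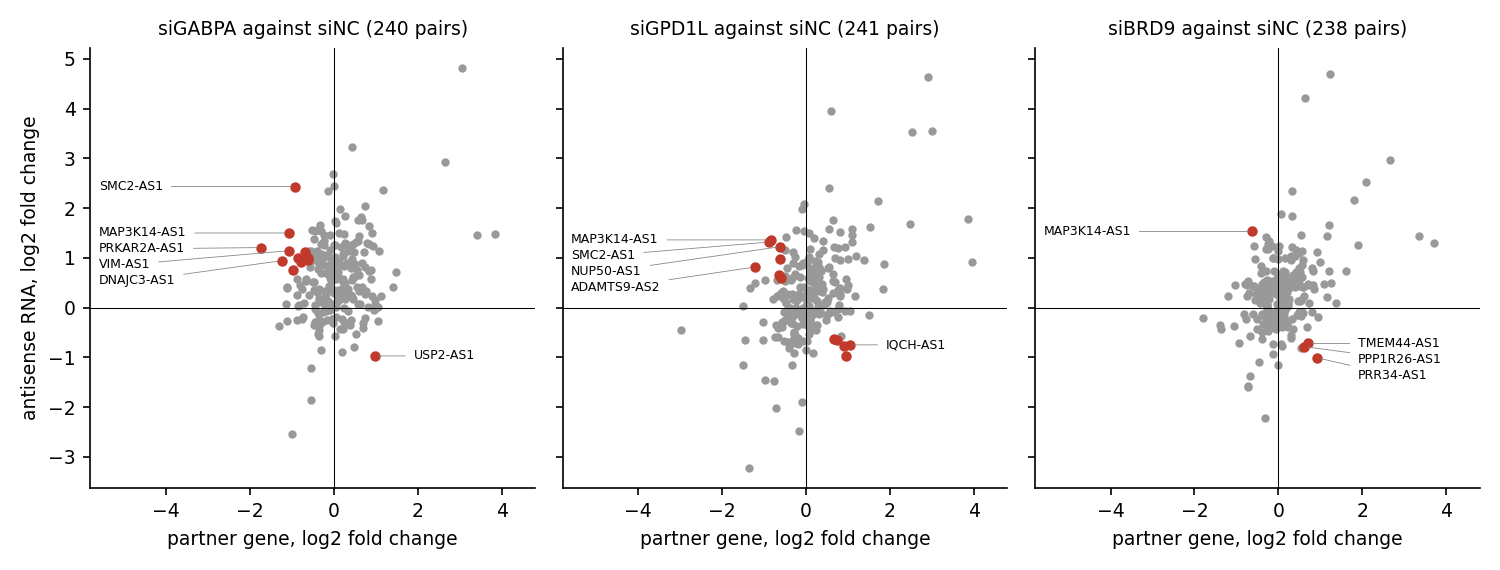
Log2 fold change of each antisense RNA (vertical) against that of its partner (horizontal) in each targeting group against siNC; each point is a pair, and red points are pairs called in opposite directions. In siGABPA 184 of 240 antisense RNAs had a larger log2 fold change than their partner, and 11 red points lie in the upper left with 1 in the lower right.

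SMC2-AS1, at chr9:104080024-104093073 on the minus strand, starts 1187 bases from SMC2, the gene of a condensin subunit, and runs the other way with no exon base shared. It went from 0.463, 0.251 and 0.764 CPM in siNC to 2.98, 2.36 and 2.86 CPM in siGABPA, while SMC2 went from 179, 222 and 159 CPM to 99.3, 102 and 94.5 CPM. The log2 fold changes were 2.43 ± 0.29 and -0.92 ± 0.08 (adjusted p = 6.66e-09 for SMC2). SMC2-AS1 reached the sum of 300 through siGABPA, with 209 counts in the other groups, so its own change is given with no p. The log2 ratio of the pair, taken per library with 0.5 CPM added to both, was higher by 2.64 in siGABPA than in siNC. PRKAR2A-AS1 begins 274 bases from the start of PRKAR2A, the gene of a regulatory subunit of protein kinase A, and overlaps it head to head. It went from 1.18, 1.21 and 0.629 CPM to 2.26, 2.50 and 2.15 CPM (1.21 ± 0.24), and PRKAR2A from 137, 131 and 130.0 CPM to 41.1, 41.0 and 37.9 CPM (-1.73 ± 0.04). PRKAR2A-AS1 likewise had 272 counts without siGABPA. Neither SMC2 nor PRKAR2A overlapped between the groups.

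VIM-AS1 lies head to head with VIM, the gene of the intermediate filament protein vimentin, with 32.2% of its exon bases in VIM exons. It went from 2.21, 2.76 and 2.43 CPM in siNC to 5.48, 5.18 and 5.72 CPM in siGABPA (1.14 ± 0.15), and VIM from 1038, 989 and 974 CPM to 483, 467 and 485 CPM (-1.06 ± 0.03). VIM-AS1 was higher still in siGPD1L (9.81, 9.17 and 10.3 CPM), where VIM was at 915, 949 and 949 CPM. MAP3K14-AS1, at the end of MAP3K14, the gene of the NF-κB-inducing kinase, and sharing exon bases with SPATA32, rose from 1.80, 1.56 and 1.21 CPM to 4.25, 4.51 and 4.11 CPM (1.5001 ± 0.18) while MAP3K14 was at -1.07 ± 0.05. This pair was called in opposite directions in siGPD1L (1.36 ± 0.19 and -0.84 ± 0.05) and in siBRD9 (1.53 ± 0.19 and -0.62 ± 0.05) as well. In siBRD9 MAP3K14 was at -0.49 with total counts only and at -0.57 without siBRD9 replicate 2, and neither is a call. DNAJC3-AS1, which starts 214 bases from the co-chaperone gene DNAJC3, was at 0.94 ± 0.23 with DNAJC3 at -1.24 ± 0.06. USP2-AS1, which starts 52 bases from the deubiquitinase gene USP2, was the 1 pair in the other direction in siGABPA, at -0.97 ± 0.20 with USP2 at 0.97 ± 0.31. The rise of USP2 rests on few reads, with 12, 9 and 10 counts in siNC and 25, 28 and 32 in siGABPA.

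Of 241 pairs in siGPD1L, 23 were called higher together and 8 lower together, while 7 had the antisense RNA called higher and the partner lower and 5 had the reverse. ADAMTS9-AS2 went from 1.18, 1.26 and 1.03 CPM in siNC to 2.08, 1.996 and 2.005 CPM in siGPD1L (0.82 ± 0.22), beside the metalloprotease gene ADAMTS9 at -1.22 ± 0.04. NUP50-AS1, which starts 60 bases from the nucleoporin gene NUP50, went from 5.71, 6.03 and 4.67 CPM to 13.3, 12.1 and 12.6 CPM (1.22 ± 0.11), beside NUP50 at -0.62 ± 0.04. NUP50 was at -0.45 with total counts only, at -0.58 when 10 counts were required in every library and at -0.58 without siGPD1L replicate 1, none of which is a call. CA3-AS1 fell from 3.19, 3.42 and 3.01 CPM to 1.66, 1.52 and 1.65 CPM (-0.98 ± 0.19), while the carbonic anhydrase gene CA3 was at 0.96 ± 0.25. IQCH-AS1 was at -0.75 ± 0.21 beside IQCH at 1.04 ± 0.18, and the call of IQCH-AS1 was lost with total counts only (-0.58). Of 238 pairs in siBRD9, 17 were called higher together and 4 lower together, while 1 had the antisense RNA higher and the partner lower and 3 had the reverse. There PPP1R26-AS1 fell from 6.02, 6.53 and 5.97 CPM in siNC to 3.62, 3.53 and 3.48 CPM (-0.79 ± 0.13), with PPP1R26, the gene of a regulator of protein phosphatase 1, at 0.61 ± 0.04. TMEM44-AS1 (-0.72 ± 0.21) fell beside a rise of TMEM44 (0.72 ± 0.05), and PRR34-AS1 was at -1.01 ± 0.27 beside PRR34 at 0.93 ± 0.29, which was 0.73 and not called without siNC replicate 3. PRR34-AS1 had 279 counts in all without siNC, 257 without siGABPA and 294 without siGPD1L, so that it reached the sum of 300 through these groups together.

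GABPB1-AS1, at chr15:50354959-50372202 on the plus strand, overlaps head to head the gene of GABPB1, the subunit that pairs with GABPA, and 2.47% of its exon bases lie in GABPB1 exons. It was at 33.0, 33.1 and 31.4 CPM in siNC, 77.8, 78.6 and 75.4 CPM in siGABPA, 98.3, 95.1 and 92.6 CPM in siGPD1L and 72.9, 72.3 and 72.0 CPM in siBRD9. Every targeting library lay above siNC, with log2 fold changes of 1.25 ± 0.04, 1.56 ± 0.05 and 1.17 ± 0.05. GABPB1 was called in none of the 3 comparisons, with 0.29 ± 0.05, -0.23 ± 0.06 and -0.25 ± 0.06. The log2 ratio of the pair was higher than in siNC by 0.94, 1.77 and 1.41 (each p = 0.1 by the two-sided exact permutation test, the smallest that 3 libraries against 3 can give). No member has GABPA, GPD1L or BRD9 as its partner.

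**Figure D5:**
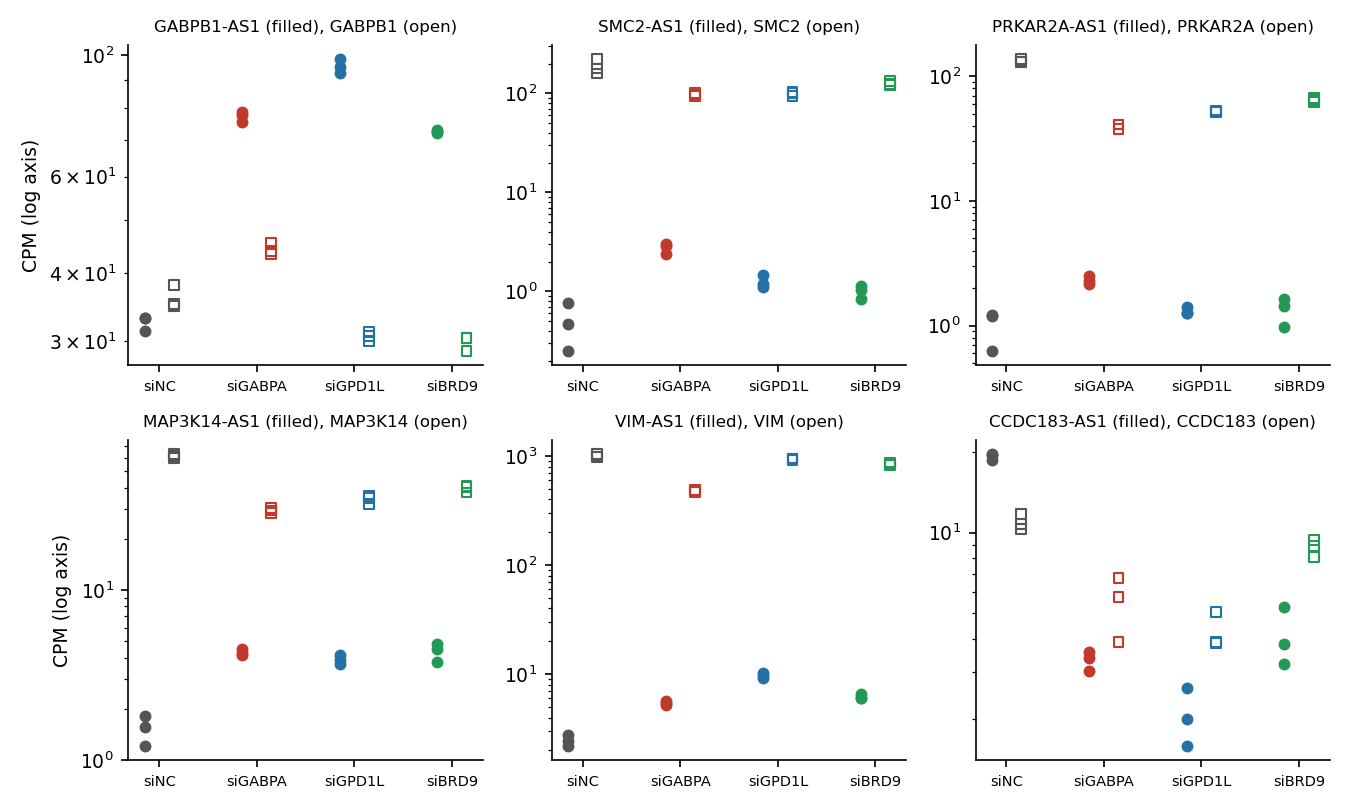
CPM of 6 antisense RNAs (filled circles) and their partners (open squares) in each library, on log axes with a range of their own per panel; the points of a column are the 3 libraries of a group. In siGABPA SMC2-AS1, PRKAR2A-AS1, MAP3K14-AS1 and VIM-AS1 lie above siNC while their partners lie below it, and CCDC183-AS1 lies below siNC together with CCDC183.

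Promoters were searched for 2 motifs on both strands, CCGGAAG, a core site of the ETS family to which GABPA belongs, and GAAANNGAA, the core of the interferon-stimulated element. Neither motif contains the other. RefSeq promoters (250 bases before to 50 after the start, GRCh38.p14) were matched for 161 of the 263 members and 198 of the partners. CCGGAAG was found in 15.5% of the members' promoters, 16.2% of the partners' and 10.3% of all 35116 promoters of the same length. Among members called higher in siGABPA the share was 14.9% of 74, and among those not called 15.9% of 82. GAAANNGAA was found in 8.7% of the members' promoters and 8.11% of all. A match describes the letters and is no evidence of binding. The promoters of 4 named members with a match are shown in lower case, 5′ to 3′ on the strand of the antisense RNA, with the match in capitals, beside that of GABPB1-AS1, which holds none. The RefSeq start of GABPB1-AS1 lies 785 bases before the GENCODE start, which this window therefore does not reach.
MAP3K14-AS1, chr17:45247675-45247974, plus strand: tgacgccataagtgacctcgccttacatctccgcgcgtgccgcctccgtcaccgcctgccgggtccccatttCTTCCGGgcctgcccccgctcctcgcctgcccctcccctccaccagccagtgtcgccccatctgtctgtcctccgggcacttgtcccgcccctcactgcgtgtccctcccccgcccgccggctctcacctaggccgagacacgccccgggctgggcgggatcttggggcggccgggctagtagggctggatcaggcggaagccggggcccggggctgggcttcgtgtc
RALY-AS1, chr20:33994318-33994617, minus strand: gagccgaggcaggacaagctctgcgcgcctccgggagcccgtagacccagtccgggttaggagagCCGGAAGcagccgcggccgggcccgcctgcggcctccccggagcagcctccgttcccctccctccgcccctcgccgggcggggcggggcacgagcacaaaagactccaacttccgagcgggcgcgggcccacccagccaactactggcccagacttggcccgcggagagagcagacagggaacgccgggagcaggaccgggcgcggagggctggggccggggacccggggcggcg
LURAP1L-AS1, chr9:12814340-12814639, minus strand: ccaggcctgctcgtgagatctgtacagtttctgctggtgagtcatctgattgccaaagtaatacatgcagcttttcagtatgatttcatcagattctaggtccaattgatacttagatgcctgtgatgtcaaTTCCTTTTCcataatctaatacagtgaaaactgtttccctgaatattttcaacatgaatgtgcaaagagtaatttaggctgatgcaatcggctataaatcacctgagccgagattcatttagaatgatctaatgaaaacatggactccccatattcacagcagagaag
ADAMTS9-AS2, chr3:64684620-64684919, plus strand: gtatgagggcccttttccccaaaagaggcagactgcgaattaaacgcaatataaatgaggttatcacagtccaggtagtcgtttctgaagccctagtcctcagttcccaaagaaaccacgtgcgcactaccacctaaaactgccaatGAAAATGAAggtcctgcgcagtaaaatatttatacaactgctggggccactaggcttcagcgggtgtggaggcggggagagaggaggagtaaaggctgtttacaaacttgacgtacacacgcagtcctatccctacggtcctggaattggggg
GABPB1-AS1, chr15:50353924-50354223, plus strand: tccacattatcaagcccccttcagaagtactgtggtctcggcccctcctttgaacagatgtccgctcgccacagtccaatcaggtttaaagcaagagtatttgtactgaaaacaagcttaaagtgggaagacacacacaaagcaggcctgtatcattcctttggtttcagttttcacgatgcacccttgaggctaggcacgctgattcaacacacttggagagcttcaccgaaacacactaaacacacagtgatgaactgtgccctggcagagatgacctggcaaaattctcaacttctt
The CCGGAAG match of MAP3K14-AS1 begins 178 bases before its start, on the other strand, and that of RALY-AS1 185 bases before its start.

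The machinery that degrades such RNAs was read from lists of its genes. Of 20 tested genes of the nuclear exosome and its adaptors, 4 were called lower (20%) and 1 higher (5%) in siGABPA against siNC, with a median log2 fold change of -0.29, beside 15.2% lower and 21.3% higher of all genes. EXOSC3, an RNA-binding cap subunit of the exosome, fell from a mean of 20.9 to 8.01 CPM (-1.39 ± 0.10). MPHOSPH6, an exosome cofactor (-0.98 ± 0.09), EXOSC4, a core subunit (-0.79 ± 0.08), and SKIV2L2, the helicase MTR4 (-0.77 ± 0.06), were lower too, and ZFC3H1, a zinc finger protein that links RNAs to the exosome, was higher (0.62 ± 0.04). In siGPD1L the list had 1 gene called lower (MPHOSPH6) and 1 higher (ZFC3H1), 5% each, beside 15.5% lower and 20.4% higher of all genes. In siBRD9 2 were lower (MPHOSPH6 and EXOSC4), 10% beside 11.5% of all genes. EXOSC3 was also lower in siGABPA than in siGPD1L (-0.998 ± 0.10) and than in siBRD9 (-0.82 ± 0.10). Of 14 genes of nonsense-mediated decay, 4 were called lower and 0 higher in siGABPA. They were EIF4A3 (-0.63 ± 0.04), MAGOH (-0.63 ± 0.04) and RBM8A (-0.89 ± 0.05), which belong to the core of the exon junction complex, and UPF3B (-0.63 ± 0.05). The part of these genes in the level of antisense RNAs was not tested.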

How the data were processed

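RNA from 12 transfected 786-O samples (siNC, siGABPA, siGPD1L and siBRD9, 3 each, grouped by their labels) was sequenced. The authors deposited 1 table of raw read counts per gene, whole numbers that are not normalized. The submitters' processing notes name HISAT2, HTSeq, DESeq2 and hg38, while the study's methods name featureCounts 1.5.0-p3, so which counter made the counts is not settled. Rows were placed on GENCODE 29, which may not be the authors' release, and 261 of 263 members were found there.

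Each comparison used its own 6 libraries in edgeR 4.0.16 (R 4.3.3) after filterByExpr. Libraries were scaled by TMM, and quasi-likelihood p-values were adjusted by Benjamini-Hochberg over all genes tested. On simulated counts for 17832 genes (siGABPA against siNC), it recovered 60 of 67 genes changed by a fold of 1.6. The changed genes were drawn above a minimum mean count, with the same spread for all genes. The share recovered therefore does not cover the rarest members. DESeq2 1.42.0, limma 3.58.1 (voom), other scalings, count filters, thresholds and sets of members were alternatives. Differences of the log2 ratio in a pair were tested by exact permutation. Promoters came from RefSeq.

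The members and lists were chosen with earlier results of these data known. Genes were named by rule: the targets, GABPB1-AS1, the 6 members called higher and 6 lower with the largest change against siNC (at least 20 mean counts and no overlap), up to 6 pairs called in opposite directions, 3 and 3 between targeting groups, the 8 most abundant per kilobase and the 3 on each side of the threshold.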

Additional observations from a re-analysis of the deposited data

How the results depend on the processing

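Counts of called antisense RNAs stayed within 1.5 times the reported ones under RLE scaling, DESeq2, limma voom, both count filters and a fit of all 12 libraries. With total counts only, 16 were lower in siGPD1L against siNC in place of 30. In the order siGABPA, siGPD1L and siBRD9 against siNC, siGABPA against siGPD1L, siGABPA against siBRD9 and siGPD1L against siBRD9, leaving out 1 library gave 126 to 135, 76 to 82, 63 to 68, 67 to 72, 73 to 83 and 7 to 11 higher, and 8 to 10, 25 to 30, 18 to 22, 7 to 8, 5 to 6 and 11 to 13 lower. FDR alone gave 23, 51, 40, 20, 17 and 33 lower, and 124, 127 and 39 higher in the last 3 comparisons. A sum of at least 1000 left 66, 47, 37, 31, 33 and 4 higher and 2, 11 and 7 lower against siNC, then 2 lower in each of the last 2, and members with no exon base in a partner exon numbered 57, 33, 24, 29, 39 and 4 higher and 4, 7, 8, 0, 1 and 2 lower, both in smaller sets of members. Their shares called lower moved as well, to 1.52% (siGABPA against siNC), 3.79% (siGABPA against siGPD1L) and 1.52% (siGPD1L against siBRD9) for the first set, and 7.37% (siGPD1L against siNC), 0% (siGABPA against siGPD1L) and 2.11% (siGPD1L against siBRD9) for the second.

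Same-numbered libraries did not deviate together (r from -0.071 to 0.033), and the replicate block gave 132, 82, 67, 71, 81 and 8 higher and 8, 30, 19, 6, 4 and 14 lower. Among named genes it ended the calls of C21orf62-AS1 in siGPD1L against siBRD9 (0.734) and of LRRC75A in siGPD1L against siNC (0.654), and no other. Of the log2 fold changes, 2568 kept direction and call, 32 lost and 18 gained the call, and 36 changed sign, all of them values that were not called, and the cause was not tested. In siGABPA against siNC, VLDLR was -0.00923 with RLE, -0.00922 with DESeq2, -0.00109 with voom, -0.000273 with the replicate block and -0.0209 to 0.0497 with 1 library left out. SOX9 was 0.21 with total counts only, 0.00108 without a filter, 0.046 with 10 counts per library and -0.0427 to 0.0407 with 1 left out. NCBP2 was 0.026 with total counts only, and ZFPM2 -0.105 to 0.153 with 1 left out. In siGPD1L, total counts only gave TGFB2-AS1 0.11, ARRDC1-AS1 0.096, BAIAP2-AS1 0.038, CYP1B1 0.00594 and TGFB2 0.15, and 10 counts per library gave TGFB2 0.0102. Leaving out 1 library there gave TGFB2 -0.0509 to 0.0139, TGFB2-AS1 -0.104 to 0.00597 and ZFPM2 -0.0754 to 0.18. In siBRD9, total counts only gave FGD5-AS1 0.033 and CYP1B1 0.11, 10 counts per library gave CYP1B1 0.00195, and leaving out 1 library gave CYP1B1 -0.102 to 0.0291 and LRRC75A -0.125 to 0.491. In siGPD1L against siBRD9 it gave IQCH -0.16 to 0.0684 and SP2 -0.0125 to 0.107. Low counts limit the rarest members, whose siNC libraries hold as few as 0 counts.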

Other observations

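The HOX clusters, which hold the homeobox genes that pattern the body axis, have 7 antisense members without a partner row of the cluster name, a group chosen after its values were seen. In siGABPA against siNC 5 were called higher (71.4%) and 0 lower, beside 50.4% and 3.05% of all members and 21.3% and 15.2% of all genes, by edgeR's quasi-likelihood test on 3 libraries against 3. HOXC-AS1 (1.39 ± 0.19), HOXB-AS1 (1.26 ± 0.26), HOXC-AS2 (1.24 ± 0.19), HOXA-AS3 (0.97 ± 0.21) and HOXB-AS3 (0.75 ± 0.10) rose on the log2 scale, while HOXD-AS2 (0.52 ± 0.12) and HOXA-AS2 (-0.26 ± 0.06) were not called. In siGPD1L and in siBRD9 1 member was called higher, HOXB-AS1 (1.598 ± 0.24 and 1.12 ± 0.25), and 1 lower, HOXA-AS2 (-0.98 ± 0.07 and -0.80 ± 0.07). Each is 14.3% of the 7, beside 20.4% higher and 15.5% lower of all genes in siGPD1L and 16.7% and 11.5% in siBRD9.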
